A study of Mus musculus with 16 samples.

Results

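A set of 7 genes of the minor endocrine cells of the mouse islet was followed through RNA-seq libraries of the 8 founder strains of the Diversity Outbred mice. They were Sst, Hhex, Rbp4 and Ghsr of the delta cell, Ppy and Pyy of the PP cell, and Ghrl of the epsilon cell, taken by gene name, and they are 7 of the 54146 genes in the deposited tables. The libraries came from whole islets of 26-week-old mice of 129S1_SvImJ (129), A_J (AJ), C57BL/6J (B6), CAST_EiJ (CAST), NOD_ShiLtJ (NOD), NZO_HlLtJ (NZO), PWK_PhJ (PWK) and WSB_EiJ (WSB), and mice of every group, of both sexes, were fed a high-fat diet. There was no group on another diet. There were 10 libraries of 129 (5 female, 5 male), 14 of AJ (7 and 7), 18 of B6 (9 and 9), 14 of CAST (6 and 8), 10 of NOD (5 and 5), 4 of NZO (3 and 1), 5 of PWK (1 and 4) and 16 of WSB (9 and 7), 91 in all. The labels do not say whether each library is a different mouse, so p-values measure the spread between libraries.

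Islets hold mostly insulin-secreting beta cells, with glucagon-secreting alpha cells and smaller numbers of delta, PP and epsilon cells. Delta cells release somatostatin, which acts through G protein-coupled receptors to restrain insulin and glucagon secretion from their neighbours. PP cells release pancreatic polypeptide and, in the mouse, peptide YY, both of the neuropeptide Y family, whereas epsilon cells release ghrelin, the hormone known for raising appetite. In RNA from whole islets, fewer cells of a type and less RNA in each cell cannot be told apart.

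Expected counts are the reads that the RSEM program assigned to each gene, which need not be whole numbers, and their total per library ranged from 16928552 to 35196145 (median 27485367). Every one of the 7 genes had at least 1 count in all 91 libraries and passed the filter that left 15204 genes to be tested. In 12 of the 91 libraries (6 of 129, 2 of NOD and 4 of WSB), counts of Xist and of Y-linked genes went against the sex label, and the sex differences of the 7 genes are therefore given with and without them. The library numbers of 129, NOD, NZO and PWK run from 66 to 100 and those of the other 4 strains from 1 to 65, so that number range and strain cannot be told apart between these sets of strains. Collection and sequencing were done in 4 waves, and the wave of each library is not given in the sources used here. Summed acinar markers (7 genes) ranged from 1469 to 19119.6 TPM in AJ and from 24430.5 to 261240.0 TPM in NOD, and summed T cell, B cell and macrophage markers had their highest strain mean in NOD, where the macrophage sum ranged from 25.7 to 2044 TPM against 8.26 to 28.6 TPM in B6. The defining adipocyte marker Adipoq had no count in 76 of 91 libraries. Ins1, Ins2 and Iapp together held 30.4% of TPM in PWK to 52.4% in AJ, which lowers the TPM (transcript abundance per length, scaled to the same total in each library) of all other genes by different amounts, and tests therefore used counts with upper-quartile normalization.

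The delta, PP and epsilon genes are spread over 5 chromosomes. In GRCm38, Sst lies on the minus strand of chromosome 16 (23889573 to 23890958), Hhex on the plus strand of chromosome 19 (37434810 to 37440731) and Rbp4 on the minus strand of the same chromosome (38116629 to 38125281), 675897 bases away. Ghsr lies on the plus strand of chromosome 3 (27371351 to 27378010) and Ghrl on the minus strand of chromosome 6 (113716119 to 113719880). Ppy (102099930 to 102101319) and Pyy (102106676 to 102107832) are neighbours on the minus strand of chromosome 11, separated by 5356 bases. Transcripts of Ppy and Pyy share no run longer than 10 bases, and Sst shares no run longer than 21 bases with Cort, its nearest relative. Ghrl overlaps RP23-392K24.8 on the opposite strand over 695 bases (mean 0.213 TPM against 7.76 TPM for Ghrl), and whether reads were assigned by strand is not given in the sources used here.

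The 3 upstream sequences shown are from RefSeq on GRCm38.p6, which is the B6 sequence. Sst is shown for the cyclic AMP response element through which its transcription is classically induced, and Ppy and Pyy because these neighbours varied together within strains while their ratio set PWK apart. Capitals mark TGACGTCA in Sst and TATAAA in Ppy, searched on both strands of the 250 bases before the start. TGACGTCA was found in 1.55% and TATAAA in 12.4% of the 32851 such windows, and neither TGACGTCA nor TATAAA was found in the Pyy window. TAATTA (4.84% of windows) and TGTTTAC (3.17%) were in none of these windows.
Sst, chr16:23890874-23890903, minus strand: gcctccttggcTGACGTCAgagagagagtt
Ppy, chr11:102101320-102101569, minus strand: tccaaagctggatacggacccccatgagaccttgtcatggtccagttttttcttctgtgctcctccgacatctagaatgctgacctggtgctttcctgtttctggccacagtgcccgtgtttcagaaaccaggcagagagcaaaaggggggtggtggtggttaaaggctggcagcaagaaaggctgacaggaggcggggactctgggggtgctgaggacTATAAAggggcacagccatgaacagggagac
Pyy, chr11:102107833-102108082, minus strand: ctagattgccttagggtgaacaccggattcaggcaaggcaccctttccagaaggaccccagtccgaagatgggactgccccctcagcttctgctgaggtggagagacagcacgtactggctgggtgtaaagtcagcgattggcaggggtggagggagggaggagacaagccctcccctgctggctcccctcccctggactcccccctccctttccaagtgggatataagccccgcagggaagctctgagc
The first base of the Sst motif lies 48 bases, and that of the Ppy motif 31 bases, before the start that RefSeq gives. For Sst that start differs from the one in the annotation used for the gene coordinates above, so that the stretch shown lies before the RefSeq start but inside the interval given for the gene.

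The first comparison asked how the level of each gene varied across the 8 strains. All 7 genes differed between strains, but so did 97.4% of the genes tested (adjusted p-value under 0.05, edgeR's quasi-likelihood F test with Benjamini-Hochberg adjustment over all genes), and the size of the differences is given beside each call. Strain accounted for 84.8% of the variance of Sst between libraries on the log2 scale, 81.7% for Rbp4, 80.3% for Hhex, 72.9% for Ghrl, 70.1% for Ghsr, 67.3% for Pyy and 55.3% for Ppy, against a median of 50.9% over all genes tested. The share for Sst was above that of 96.2% of genes and the share for Ppy above that of 57.7%. Of the 28 pairs of strains, 25 differed for Sst, 25 for Hhex, 26 for Rbp4, 22 for Ghsr, 16 for Ppy, 20 for Pyy and 20 for Ghrl, where 50.3% of all gene and pair combinations were called. Taken singly, the pairs named next had 42.1% (PWK and NZO), 43% (PWK and CAST), 66.9% (AJ and NOD), 57.3% (PWK and NOD), 66.2% (CAST and NOD), 56% (CAST and WSB), 55.1% (129 and WSB), 64.5% (NOD and WSB), 53.9% (AJ and PWK) and 50.2% (PWK and WSB) of genes called.

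**Figure D1:**
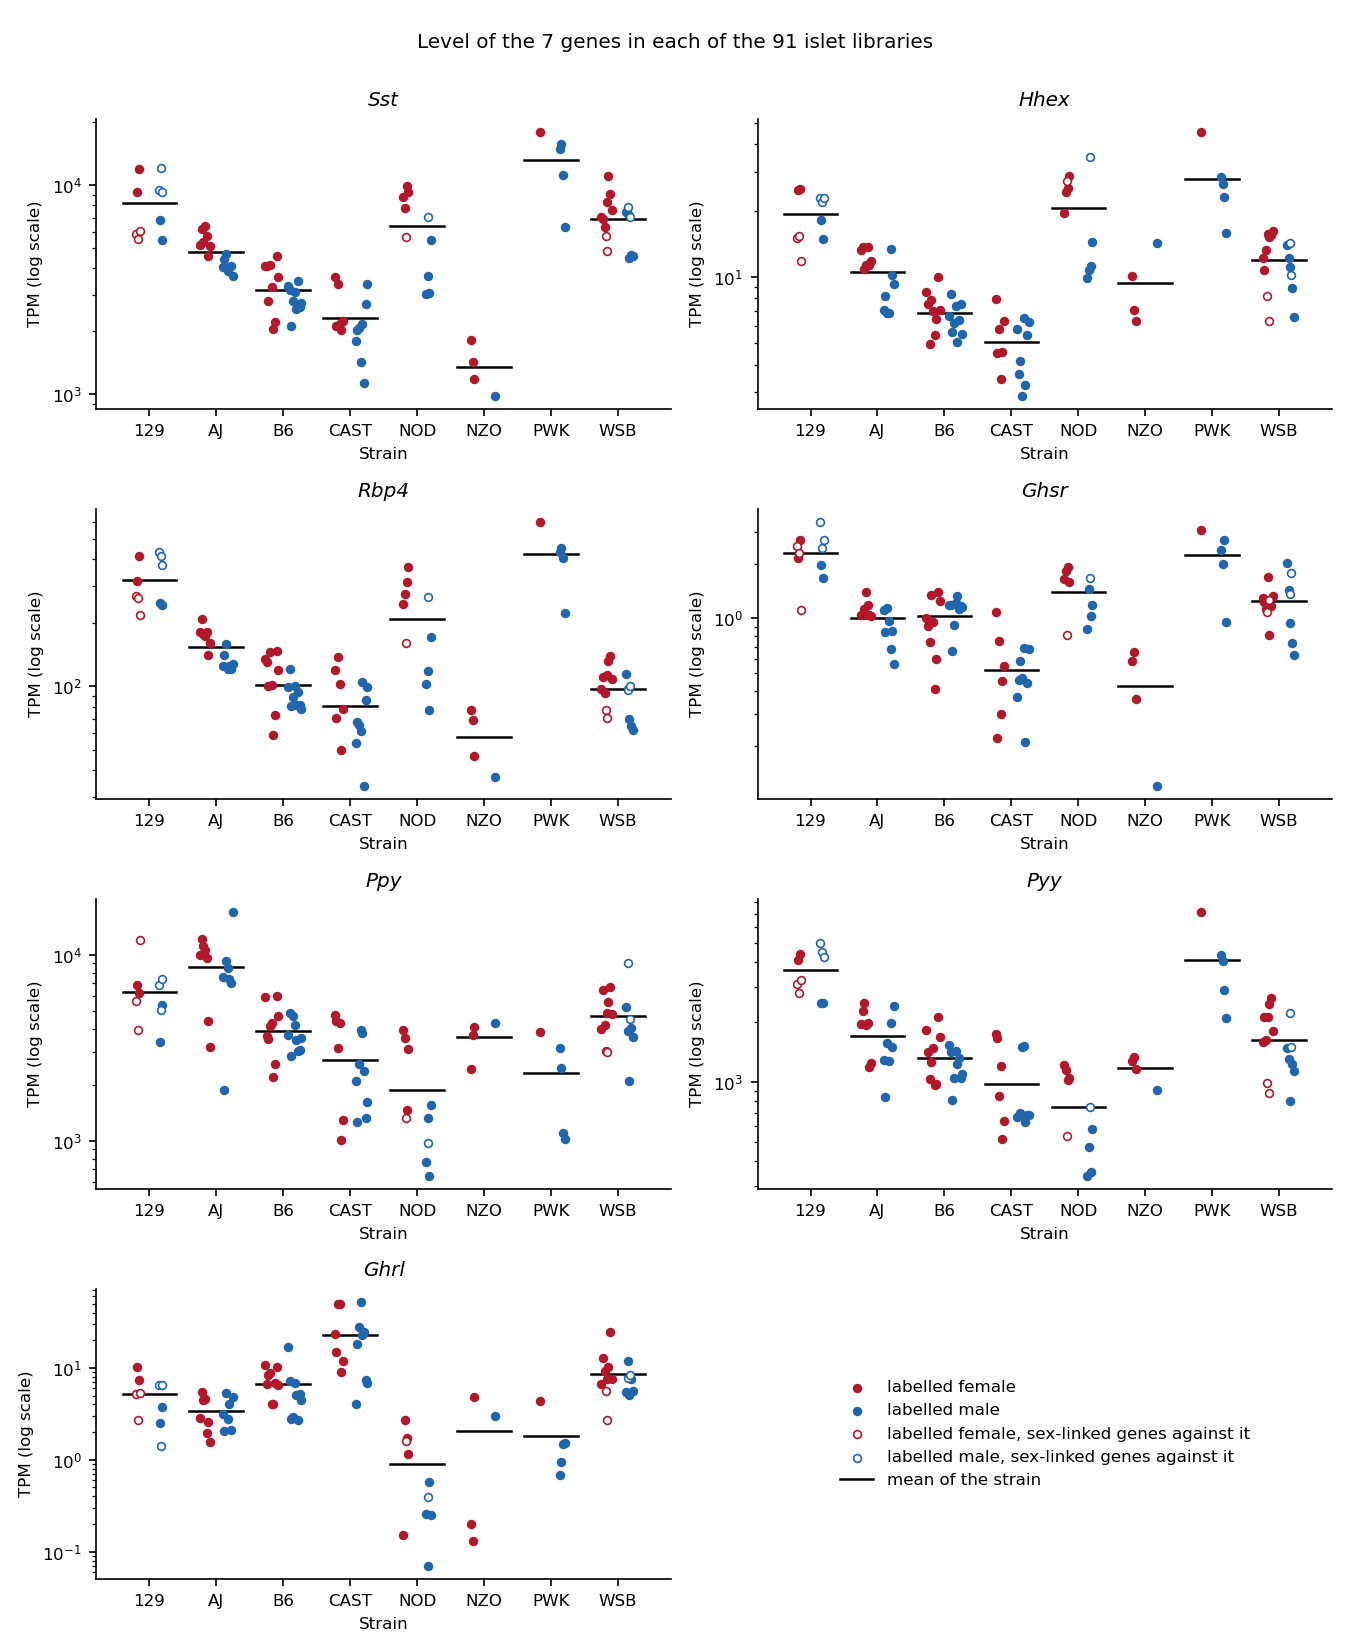
Level in TPM (log scale) of Sst, Hhex, Rbp4, Ghsr, Ppy, Pyy and Ghrl in each of the 91 islet libraries, by strain and labelled sex, with a line at the mean of each strain and open circles for the 12 libraries whose sex-linked genes go against the label. Sst was highest in PWK and lowest in NZO, Ppy was highest in AJ, and Ghrl was highest in CAST and lowest in NOD.

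Somatostatin transcripts were among the most abundant in the islet and differed widely between strains. Over all libraries Sst averaged 5315 TPM and had rank 14 among protein-coding genes by mean TPM. The mean level was 13212 ± 4552 TPM in PWK (SD, n = 5), 8182 ± 2572 TPM in 129 (SD, n = 10), 6876 ± 1779 TPM in WSB (SD, n = 16) and 6375 ± 2592 TPM in NOD (SD, n = 10). It was 4815 ± 863 TPM in AJ (SD, n = 14), 3158 ± 748 TPM in B6 (SD, n = 18), 2308 ± 729 TPM in CAST (SD, n = 14) and 1355 ± 362 TPM in NZO (SD, n = 4). The 5 PWK libraries held 6291, 11246, 14949.6, 15653 and 17918 TPM, and the 4 NZO libraries held 983, 1184, 1428 and 1824 TPM. All 4 NZO libraries lay below every library of the other strains except CAST, whose libraries ran from 1138 over a median of 2148 to 3656 TPM. PWK exceeded NZO by 10.1-fold, or 3.34 ± 0.22 (SE) on the log2 scale, adjusted p-value 4.79e-23. Going down the order of normalized counts, neighbouring strains differed at each step except WSB and 129 and 129 and NOD (difference of WSB and 129 0.01 ± 0.12, adjusted p-value 0.947 on the log2 scale).

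Hhex, the homeobox factor that maintains delta cells, was highest in PWK like Sst, but lowest in CAST and not in NZO. Its mean was 27.8 ± 10.9 TPM in PWK (SD, n = 5), 20.7 ± 8.81 TPM in NOD (SD, n = 10), 19.3 ± 4.79 TPM in 129 (SD, n = 10) and 11.9 ± 3.22 TPM in WSB (SD, n = 16). The other 4 strains had 10.6 ± 2.55 TPM in AJ (SD, n = 14), 9.44 ± 3.58 TPM in NZO (SD, n = 4), 6.88 ± 1.34 TPM in B6 (SD, n = 18) and 5.05 ± 1.49 TPM in CAST (SD, n = 14). The PWK libraries held 15.8, 23.1, 26.6, 28.3 and 45.4 TPM, all above the CAST libraries, which ran from 2.89 over a median of 5.01 to 7.97 TPM. PWK exceeded CAST by 4.63-fold, or 2.21 ± 0.15 (SE) on the log2 scale, adjusted p-value 8.76e-23. NZO, the lowest strain for Sst, held 6.31, 7.09, 10.2 and 14.2 TPM of Hhex, and no difference passed the test against AJ (0.06 ± 0.18, adjusted p-value 0.806) or B6 (0.31 ± 0.17, adjusted p-value 0.149).

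Rbp4, which encodes the carrier of retinol in plasma and is a marker of mouse delta cells, was also highest in PWK and lowest in NZO. It averaged 422 ± 135 TPM in PWK (SD, n = 5), 318 ± 81.9 TPM in 129 (SD, n = 10), 209 ± 97.3 TPM in NOD (SD, n = 10) and 153 ± 28.3 TPM in AJ (SD, n = 14), and 102 ± 25.8 TPM in B6 (SD, n = 18), 96.6 ± 23.1 TPM in WSB (SD, n = 16), 80.9 ± 28.9 TPM in CAST (SD, n = 14) and 57.8 ± 18.7 TPM in NZO (SD, n = 4). The PWK libraries held 222, 405, 434, 452 and 599 TPM, and the NZO libraries 37.3, 47, 69.6 and 77.2 TPM. Every library of PWK and of 129 (217 to 433 TPM) lay above every library of AJ, B6, CAST, NZO and WSB. PWK exceeded NZO by 7.68-fold, or 2.94 ± 0.21 (SE) on the log2 scale, adjusted p-value 1.04e-21.

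Rbp4 was low for the level of Sst in WSB. The difference of WSB in Sst did not pass the test against 129 (0.01 ± 0.12) or NOD (0.23 ± 0.12 on the log2 scale, adjusted p-value 0.0739), and the WSB libraries ran from 4482 over a median of 7050.3 to 11017 TPM. Rbp4, in contrast, ran from 62.4 over a median of 97.3 to 139.7 TPM in WSB, and was higher in 129 by 1.45 ± 0.11 (adjusted p-value 1.27e-20) and in NOD by 0.95 ± 0.11 (adjusted p-value 2.15e-12). Within a library, the ratio of Rbp4 to Sst in TPM was 0.0142 ± 0.00114 (SD, n = 16) in WSB, from 0.0120 to 0.0161, whereas the 75 other libraries ran from 0.0246 to 0.0488. No library of WSB overlapped any other library in this ratio, which was chosen after the values were seen and was not tested. The ratio of Hhex to Sst, set beside it, also had its lowest mean in WSB, at 0.00175 ± 0.000324. It was 0.00214 ± 0.000374 in PWK, 0.00223 ± 0.000372 in B6 and 0.00241 ± 0.000336 in 129. In this ratio the WSB libraries (0.00130 to 0.00248) overlapped those of PWK (0.00170 to 0.00253). The mean ratio of Ghsr to Sst was 0.000186 in WSB and lower only in PWK, at 0.000170.

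**Figure D2:**
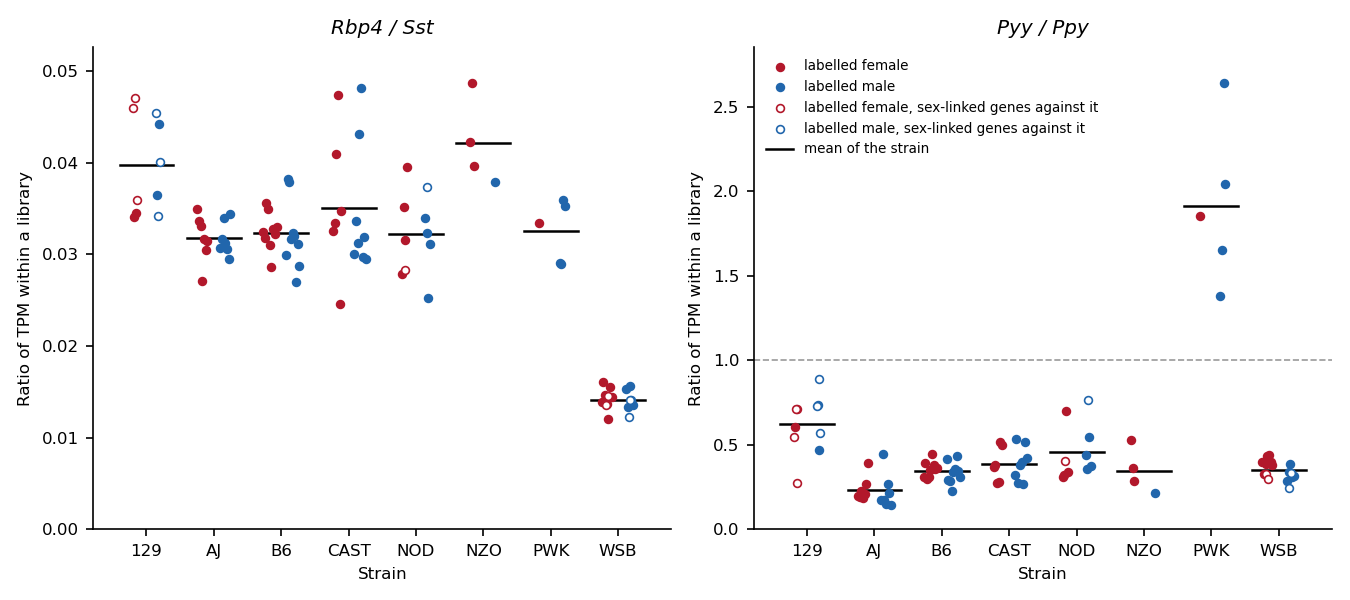
Ratio of Rbp4 to Sst (left) and of Pyy to Ppy (right), each in TPM within a library, by strain and labelled sex, with a line at the mean of each strain, open circles for libraries whose sex-linked genes go against the label, and a dashed line at 1 in the right panel. The 16 WSB libraries lie between 0.0120 and 0.0161 on the left, below the 75 others, and the 5 PWK libraries lie between 1.38 and 2.64 on the right, above the 86 others.

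Ghsr, the ghrelin receptor, which in mouse islets is found mainly on delta cells, was a low transcript with a median of 114 expected counts per library. Its mean was 2.29 ± 0.626 TPM in 129 (SD, n = 10), 2.22 ± 0.805 TPM in PWK (SD, n = 5), 1.4 ± 0.398 TPM in NOD (SD, n = 10) and 1.24 ± 0.374 TPM in WSB (SD, n = 16), then 1.03 ± 0.278 TPM in B6 (SD, n = 18), 1.0 ± 0.214 TPM in AJ (SD, n = 14), 0.518 ± 0.232 TPM in CAST (SD, n = 14) and 0.427 ± 0.239 TPM in NZO (SD, n = 4). PWK libraries held 0.96, 2.0, 2.38, 2.71 and 3.05 TPM, and NZO libraries 0.12, 0.36, 0.58 and 0.65 TPM. PWK exceeded NZO by 4.91-fold, or 2.30 ± 0.30 (SE) on the log2 scale, adjusted p-value 6.68e-10, whereas its difference from 129 did not pass the test (0.01 ± 0.22, adjusted p-value 0.975). That of CAST and NZO, at the bottom of the order, did not pass (0.51 ± 0.25, adjusted p-value 0.0861).

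Pancreatic polypeptide showed another order of strains. Ppy averaged 4505 TPM over all libraries and was 8531 ± 3845 TPM in AJ (SD, n = 14), 6274 ± 2386 TPM in 129 (SD, n = 10), 4684 ± 1682 TPM in WSB (SD, n = 16) and 3906 ± 1043 TPM in B6 (SD, n = 18). It was 3617 ± 821 TPM in NZO (SD, n = 4), 2702 ± 1330.4 TPM in CAST (SD, n = 14), 2314 ± 1244 TPM in PWK (SD, n = 5) and 1869 ± 1210.0 TPM in NOD (SD, n = 10). AJ libraries ran from 1881 over a median of 8861 to 16916 TPM and NOD libraries from 646 over a median of 1398 to 3953 TPM, and the strains overlapped. AJ exceeded NOD by 4.32-fold, or 2.11 ± 0.26 (SE) on the log2 scale, adjusted p-value 2.07e-11. For no pair of neighbours in the order did the difference pass the test, from AJ and 129 (0.52 ± 0.24, adjusted p-value 0.0682) to PWK and NOD (0.22 ± 0.32, adjusted p-value 0.568), and the spread within strains was wide, with an SD of 1330.4 TPM around a mean of 2702 TPM in CAST.

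Peptide YY, which shares its receptor family with pancreatic polypeptide and is also known from the gut, was 4107 ± 1915 TPM in PWK (SD, n = 5), 3643 ± 916 TPM in 129 (SD, n = 10), 1709 ± 507 TPM in AJ (SD, n = 14) and 1617 ± 564 TPM in WSB (SD, n = 16). In the remaining strains Pyy was 1318 ± 338 TPM in B6 (SD, n = 18), 1169.7 ± 187 TPM in NZO (SD, n = 4), 977 ± 447 TPM in CAST (SD, n = 14) and 744 ± 335 TPM in NOD (SD, n = 10). PWK libraries held 2098, 2914, 4040.3, 4352 and 7132 TPM, and NZO libraries 911, 1157, 1280.2 and 1330.2 TPM. NOD libraries, which ran from 337 over a median of 663 to 1213 TPM, all lay below every library of PWK and 129. PWK exceeded NOD by 4.61-fold, or 2.20 ± 0.22 (SE) on the log2 scale, adjusted p-value 9.36e-15. The difference of PWK and 129 did not pass the test (0.06 ± 0.22, adjusted p-value 0.867), and 129 exceeded the next strain, WSB, by 0.91 ± 0.16 (adjusted p-value 1.77e-06).

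Pyy was high for the level of Ppy in PWK. Against AJ, PWK was lower in Ppy by 1.89 ± 0.34 (adjusted p-value 2.09e-06) and higher in Pyy by 1.09 ± 0.20 (adjusted p-value 4.66e-06) on the log2 scale. Against WSB, it was lower in Ppy by 1.24 ± 0.32 (adjusted p-value 0.000869) and higher in Pyy by 0.97 ± 0.20 (adjusted p-value 3.2e-05). PWK held more Pyy than Ppy in all 5 libraries, with ratios in TPM from 1.38 to 2.64, whereas in the 86 other libraries the ratio ran from 0.142 to 0.887. The mean ratio was 1.92 ± 0.476 (SD, n = 5) in PWK, 0.623 ± 0.171 (n = 10) in 129 and 0.23 ± 0.0889 (n = 14) in AJ. This ratio was also chosen after the values were seen and was not tested. TPM divides by transcript length, so the ratio compares levels per length. Reads of all strains were aligned to the B6 reference, and the effect of this on PWK, CAST and WSB, the wild-derived strains, was not tested.

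Ghrelin had the widest range of all 7 genes. Ghrl was 23 ± 16.5 TPM in CAST (SD, n = 14), 8.65 ± 4.92 TPM in WSB (SD, n = 16), 6.69 ± 3.51 TPM in B6 (SD, n = 18) and 5.17 ± 2.67 TPM in 129 (SD, n = 10), and 3.41 ± 1.34 TPM in AJ (SD, n = 14), 2.05 ± 2.29 TPM in NZO (SD, n = 4), 1.8 ± 1.47 TPM in PWK (SD, n = 5) and 0.89 ± 0.883 TPM in NOD (SD, n = 10). CAST libraries ran from 4.05 over a median of 20.4 to 51.9 TPM, and NOD libraries from 0.070 over a median of 0.48 to 2.72 TPM, with no overlap. NZO libraries held 0.13, 0.20, 3.03 and 4.83 TPM, and PWK libraries 0.68, 0.95, 1.5, 1.54 and 4.35 TPM. CAST exceeded NOD by 31.2-fold, or 4.97 ± 0.44 (SE) on the log2 scale, adjusted p-value 2.74e-17, and it exceeded the next strain, WSB, by 1.58 ± 0.30 (adjusted p-value 5e-06). The counts behind the low values were few. Of the libraries, 7 of 10 in NOD, 2 of 4 in NZO and 2 of 5 in PWK held fewer than 10 expected counts of Ghrl, and the differences of NZO and PWK and of PWK and NOD did not pass the test (PWK and NOD 1.00 ± 0.55, adjusted p-value 0.116).

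The next comparison set each strain against the mean of the other 7, to describe how the 7 genes moved together in each strain. In PWK, 4 of 4 delta genes were higher, where 23.2% of the genes tested were higher. Sst exceeded the mean of the other strains by 1.66 ± 0.12 (SE) on the log2 scale, adjusted p-value 2.24e-22, Rbp4 by 1.73 ± 0.11 (SE) on the log2 scale, adjusted p-value 7.03e-25, Hhex by 1.32 ± 0.13 and Ghsr by 1.03 ± 0.17. Pyy was higher as well (1.25 ± 0.17 (SE) on the log2 scale, adjusted p-value 1.49e-09), whereas Ppy (-0.93 ± 0.29, adjusted p-value 0.00712) and Ghrl (-1.39 ± 0.48, adjusted p-value 0.0136) were lower, where 21.8% of genes were lower. Of 10 lists of markers of other cell types (those with 3 to 7 genes tested), each list with at least 3 genes past the test in 1 direction is given for each strain. In PWK, 5 of 5 alpha cell markers (median 0.89), 3 of 3 T cell markers (median 1.36) and 3 of 4 Schwann cell markers (median 1.21) were higher, and 3 of 7 beta cell markers (median -0.13) were lower, where the median over all genes was 0.01. Another 1 of the 7 beta cell markers was higher in PWK. The alpha cell markers, glucagon among them, summed to 11531 to 40929.9 TPM, against 7352 to 23124 TPM in B6. The part of these cells in the result was not tested. Without PWK replicate 1 the difference of Ghrl was -1.20 (adjusted p-value 0.0574) and without replicate 2 it was -1.19 (0.0585), and with limma-voom over all libraries it was -1.14 ± 0.68 (adjusted p-value 0.169), and the call was lost in each case.

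**Figure D3:**
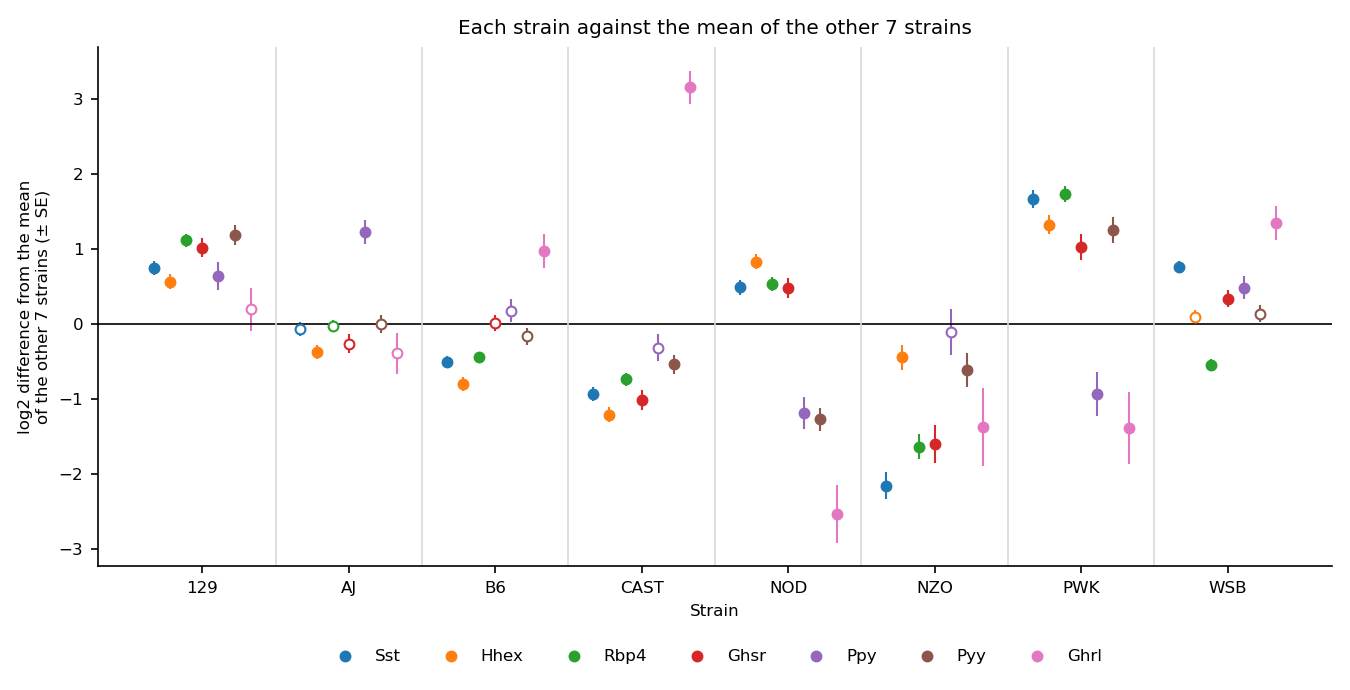
Difference of each strain from the mean of the other 7 strains, on the log2 scale with its SE, for the 7 genes, with filled circles for an adjusted p-value under 0.05 and open circles otherwise. The 4 delta genes lie above 0 in PWK, 129 and NOD and below 0 in NZO and CAST, while Ghrl reaches 3.15 in CAST and -2.53 in NOD.

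NZO stood at the other end, with 4 of 4 delta genes lower where 14.2% of genes were lower. Sst was lower by 2.15 ± 0.18 (adjusted p-value 2.86e-17), Rbp4 by 1.63 ± 0.17 and Ghsr by 1.60 ± 0.25, while Hhex was lower by 0.44 ± 0.17 (adjusted p-value 0.0328). Pyy and Ghrl were lower too (adjusted p-values 0.0287 and 0.0322), and Ppy was at -0.11 ± 0.30 (adjusted p-value 0.823). With 4 libraries, 3 of these calls were lost when single libraries were left out. The difference of Hhex was -0.42 (adjusted p-value 0.0915), -0.30 (0.237) and -0.28 (0.271) without NZO replicates 1, 2 and 3. That of Pyy was -0.60 (0.0709), -0.63 (0.0549), -0.60 (0.0749) and -0.60 (0.0888) without each of the 4 in turn, and that of Ghrl was -0.96 (0.183), -0.98 (0.183) and -1.55 (0.052) without replicates 1, 2 and 4. In NZO, 4 of 5 ductal markers (median 1.58), 3 of 4 endothelial markers (median 0.36) and 3 of 4 mesenchymal markers (median 1.32) were higher, and 5 of 5 alpha cell markers (median -1.42) were lower. The alpha cell markers summed to 3176 to 13662 TPM, and the 5 ductal markers summed to 213 to 894 TPM against 87.9 to 184 TPM in B6. Their part in the result was not tested.

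In NOD, 4 of 4 delta genes were higher (35.8% of genes were higher), with Hhex at 0.83 ± 0.10 (SE) on the log2 scale, adjusted p-value 6.48e-12, Rbp4 at 0.53 ± 0.09, Sst at 0.49 ± 0.10 and Ghsr at 0.48 ± 0.13. Ppy, Pyy and Ghrl were lower by 1.18 ± 0.22, 1.27 ± 0.16 and 2.53 ± 0.38 (adjusted p-values 1.76e-06, 1.71e-11 and 1.61e-08), where 29.5% of genes were lower. In NOD, 6 of 6 acinar markers (median 1.53), 3 of 5 ductal markers (median 0.69), 3 of 3 T cell markers (median 6.49), 4 of 4 B cell markers (median 5.01), 4 of 4 macrophage markers (median 2.67) and 4 of 4 mesenchymal markers (median 1.72) were higher, and 5 of 7 beta cell markers (median -0.34) were lower. Another 1 of the 5 ductal markers was lower in NOD. The B cell markers summed to 5.69 to 637 TPM and the T cell markers to 2.13 to 393 TPM, against 3.45 to 9.41 TPM and 0.040 to 1.51 TPM in B6, and 10 of 11 islet transcription factors tested were lower in NOD. Their part in the result was not tested.

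In 129, 4 of 4 delta genes (27.9% of genes were higher) and both Ppy and Pyy were higher, Pyy by 1.18 ± 0.13 (SE) on the log2 scale, adjusted p-value 6.62e-13 and Rbp4 by 1.11 ± 0.09. The call of Ppy (0.64 ± 0.19) was lost without the 12 libraries against their sex label, at 0.42 (adjusted p-value 0.268). In 129, 5 of 5 alpha cell markers (median 1.21) were higher, and 6 of 6 acinar markers (median -1.68), 4 of 5 ductal markers (median -1.46), 4 of 4 macrophage markers (median -0.92), 4 of 4 mesenchymal markers (median -1.39) and 4 of 4 Schwann cell markers (median -2.11) were lower. The alpha cell markers summed to 13683 to 52014 TPM, and the part of these cells was not tested.

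In CAST, 4 of 4 delta genes were lower (31% of genes were lower), with Hhex at -1.21 ± 0.10 and Sst at -0.93 ± 0.09, and Pyy was lower by 0.54 ± 0.13. In CAST, 5 of 7 beta cell markers (median 0.18) and 6 of 6 acinar markers (median 1.31) were higher, and 4 of 4 endothelial markers (median -0.37), 3 of 3 T cell markers (median -2.50), 4 of 4 macrophage markers (median -1.05) and 3 of 4 mesenchymal markers (median -0.59) were lower. None of the 5 alpha cell markers passed in CAST, and the part of these cells was not tested. Ghrl alone was higher in CAST among the 7 (26.7% of genes were higher), by 3.15 ± 0.22 (SE) on the log2 scale, adjusted p-value 2.7e-22.

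In B6, Sst, Hhex and Rbp4 were lower (27.6% of genes), Hhex the most at -0.80 ± 0.09, and Ghrl was higher by 0.97 ± 0.22 (25.6% of genes). Beside these, 3 of 7 beta cell markers (median 0.19) and 4 of 6 acinar markers (median 0.96) were higher, and 4 of 4 endothelial markers (median -0.53), 3 of 3 T cell markers (median -2.11), 4 of 4 B cell markers (median -2.18), 3 of 4 macrophage markers (median -0.68), 4 of 4 mesenchymal markers (median -1.31) and 4 of 4 Schwann cell markers (median -1.04) were lower in B6, where 2 of 5 alpha cell markers were lower, and the part of these cells was not tested. In AJ, Ppy was higher by 1.23 ± 0.16 (SE) on the log2 scale, adjusted p-value 4.08e-10 (24.9% of genes were higher), Hhex was lower by 0.37 ± 0.10 (32.1% of genes were lower), and the other 5 genes did not pass the test. Of the markers in AJ, 5 of 7 beta cell markers (median 0.26) were higher, and 3 of 5 alpha cell markers (median -0.29), 6 of 6 acinar markers (median -3.65), 3 of 5 ductal markers (median -1.06), 3 of 3 T cell markers (median -1.43), 3 of 4 B cell markers (median -1.56), 3 of 4 macrophage markers (median -0.48) and 3 of 4 Schwann cell markers (median -0.51) were lower. The other 2 of the 5 ductal markers were higher in AJ. In WSB, 6 of 7 beta cell markers (median 0.29), 3 of 4 endothelial markers (median 0.33) and 3 of 4 Schwann cell markers (median 0.56) were higher, and 3 of 3 T cell markers (median -3.02), 3 of 4 B cell markers (median -3.02) and 3 of 4 macrophage markers (median -0.59) were lower, and the part of these cells was not tested in either strain. In WSB, Sst (0.76 ± 0.08), Ghsr (0.34 ± 0.11), Ppy (0.49 ± 0.16) and Ghrl (1.35 ± 0.23) were higher (26.6% of genes) and Rbp4 was lower by 0.55 ± 0.08 (29.7% of genes). Without the 12 libraries against their sex label, Ghsr in WSB was at 0.24 (adjusted p-value 0.0892) and did not pass the test. Without NOD, Ppy in WSB was at 0.33 (adjusted p-value 0.067) and its call was lost. Calls gained without NOD were Ghrl in AJ (-0.77, adjusted p-value 0.0157), Pyy in B6 (-0.35, 0.00749), Ppy in CAST (-0.50, 0.0108) and Hhex in WSB (0.22, 0.0361). Ghsr in AJ gained its call without NZO replicate 4 (-0.30, 0.0263).

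Sex was compared next, as males against females over the 8 strains. Of the 7 genes, 4 were lower in libraries labelled male and none was higher, where 1.95% of the genes tested were lower and 2.06% higher. Sst differed by -0.31 ± 0.06 (SE) on the log2 scale (adjusted p-value 0.000673, edgeR), Rbp4 by -0.33 ± 0.06 (0.000146), Pyy by -0.33 ± 0.09 (0.0155) and Hhex by -0.22 ± 0.07 (0.0404). The call for Hhex was lost with filterByExpr's filter (adjusted p-value 0.0502) and with limma-voom (adjusted p-value 0.0879). Ghsr (-0.08 ± 0.09, 0.722), Ppy (-0.26 ± 0.12, 0.278) and Ghrl (-0.38 ± 0.18, 0.289) did not pass the test.

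Without the 12 libraries whose sex-linked genes go against the label, the differences of the same 4 genes were larger, at -0.43 ± 0.05 for Sst (adjusted p-value 6.71e-09), -0.45 ± 0.05 for Rbp4 (9.4e-10), -0.46 ± 0.09 for Pyy (7.91e-05) and -0.33 ± 0.06 for Hhex (0.000153), among 4.87% of genes lower in males over the 79 libraries that remain. In the 6 strains that keep 2 or more libraries of each sex (only 2 male and 2 female in 129), mean normalized counts of Sst, Hhex, Rbp4 and Pyy were then lower in males in 6 of 6 strains. With all libraries they were lower in 5 of 6, the exception being 129, the strain with 6 such libraries of 10. In B6, which has none, Sst averaged 40873 normalized counts in 9 male and 59209 in 9 female libraries. In AJ, which has none, Rbp4 averaged 2552 normalized counts in 7 male and 3159.9 in 7 female libraries.

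**Figure D4:**
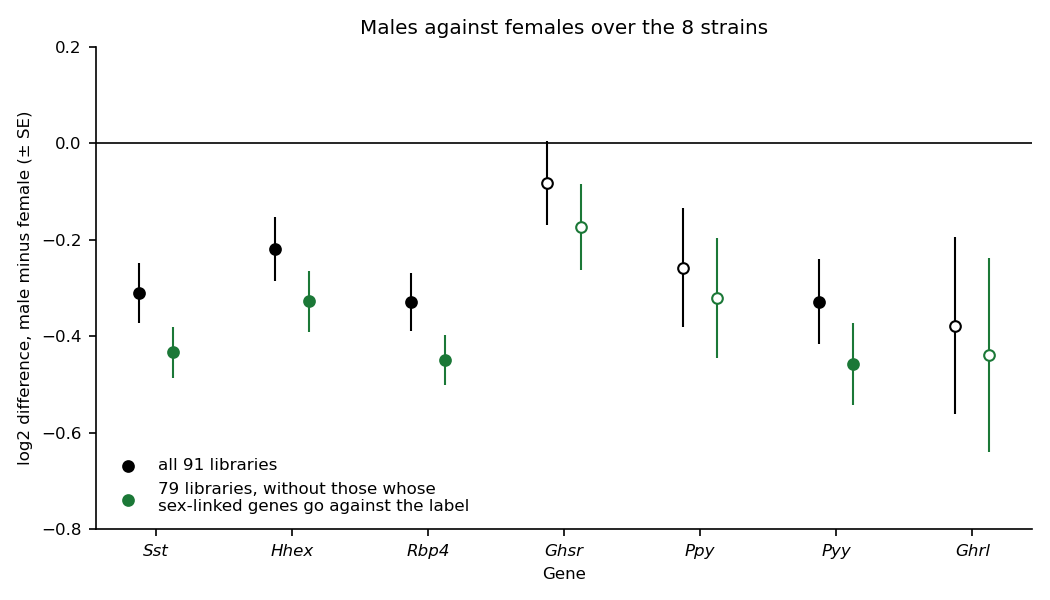
Difference of males and females on the log2 scale (male minus female, with its SE) for the 7 genes, over all 91 libraries and over the 79 libraries whose sex-linked genes follow the label, with filled circles for an adjusted p-value under 0.05. All 7 differences lie below 0 in both sets, and Sst, Hhex, Rbp4 and Pyy pass the test in both.

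Of the 5 alpha cell markers, 3 were lower in males as well (median -0.33, over all genes -0.00). These marker tests were run over all libraries only. The summed level of the alpha cell markers had a median of 12315 TPM in libraries labelled male and 17303 TPM in those labelled female, and without the 12 libraries 11628 and 17758 TPM. None of the 7 beta cell markers and none of the 6 acinar markers tested passed, no list but the alpha cell markers had 3 or more genes past the test in 1 direction, and the acinar sum ran from 1979.6 to 261240.0 TPM in males and from 1469 to 259173 TPM in females. The beta cell sum had a median of 466212 TPM in libraries labelled male and 423503 TPM in those labelled female. Without the 12 libraries these medians were 489848 and 412678 TPM. The part of these cells in the result was not tested. For the interaction of strain and sex, fitted over 82 libraries, leaving out NZO and PWK, none of the 7 genes passed (edgeR, 5.9% of genes did), and 1 of 7, Rbp4, had an unadjusted p-value under 0.05. DESeq2 and limma-voom called none of the 7, nor did edgeR without the 12 libraries. The adjusted p-value was lowest for Rbp4, at 0.145.

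Correlations between libraries of the same strain and labelled sex show which of the 7 genes varied together when strain is set aside. They were computed on deviations of log2(normalized count + 1) from the mean of the strain and labelled sex, over 89 libraries, leaving out the single male of NZO and the single female of PWK. The 12 libraries against their sex label kept that label, so their deviations can hold part of a sex difference. In 129 they are 6 of 10 libraries. No correlation was computed without these 12. Of 21 pairs of genes, 11 had a correlation with an adjusted permutation p-value under 0.05. How many other genes reached as high an r is given by ranks among the 15203 genes other than the gene itself, and no such p-value was computed for other pairs. The smallest p that the 100000 permutations within strain and sex can give is 1e-05. All pairs share libraries, their depth and their cell makeup.

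The largest correlations were of 2 pairs. Ppy and Pyy, the chromosome 11 neighbours, had Pearson's r = 0.79 and Spearman's rho = 0.77, permutation p adjusted over the 21 pairs 7e-05 and 5.25e-05, and r = 0.78 without the 2 libraries farthest from the median of Ppy. Each was the gene of highest correlation with the other among 15203, and in the 6 strains with at least 10 libraries r ran from 0.40 in 129 to 0.91 in WSB. Sst and Rbp4 had Pearson's r = 0.78 and Spearman's rho = 0.78, permutation p adjusted over the 21 pairs 7e-05 and 5.25e-05, and r = 0.74 without the 2 libraries farthest from the median of Sst. Within strains r ran from 0.62 in CAST to 0.89 in WSB, and WSB, with its low Rbp4 for its Sst, was at 0.89.

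Sst also varied with Hhex (Pearson's r = 0.53 and Spearman's rho = 0.51, permutation p adjusted over the 21 pairs 7e-05 and 5.25e-05, and r = 0.53 without the 2 libraries farthest from the median of Sst) and with Ghsr (Pearson's r = 0.49 and Spearman's rho = 0.48, permutation p adjusted over the 21 pairs 0.00021 and 5.25e-05, and r = 0.42 without the 2 libraries farthest from the median of Sst). The ranks of each gene for the other were 32 and 7 for Sst and Hhex and 74 and 49 for Sst and Ghsr. Within strains, r of Sst and Hhex ran from -0.01 in AJ to 0.86 in 129, and that of Sst and Ghsr from -0.01 in WSB to 0.80 in NOD, so that each was near 0 in 1 strain. Rbp4 varied with Ghsr (r = 0.51, adjusted p 0.000462, ranks 90 and 25) and Hhex (r = 0.37, adjusted p 0.00199, ranks 415 and 524). Within strains, r of Rbp4 and Ghsr ran from 0.08 in WSB to 0.70 in 129 and that of Rbp4 and Hhex from -0.05 in AJ to 0.80 in 129. The values of 129 include its 6 libraries against their sex label, and r in 129 without them was not computed. Hhex and Ghsr, both delta genes, did not pass (r = 0.15, adjusted p 0.405), but this call depended on the scaling, since r was 0.47 (adjusted p 6.3e-05) on log2(TPM + 1) and 0.46 (adjusted p 0.000229) on the ratio to Ins1, Ins2 and Iapp. The same held for Rbp4 and Ppy (r = 0.25, adjusted p 0.0755), at 0.40 (adjusted p 0.000404) and 0.36 (adjusted p 0.00124) on these scales, and for Ghsr and Pyy (r = 0.15, adjusted p 0.405), at 0.41 (adjusted p 0.000435) and 0.35 (adjusted p 0.0054).

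Among genes grouped here under different cell types, Pyy varied with Sst (Pearson's r = 0.41 and Spearman's rho = 0.42, permutation p adjusted over the 21 pairs 0.0017 and 0.00084, and r = 0.41 without the 2 libraries farthest from the median of Sst), whereas Ppy did not pass with Sst (r = 0.15, adjusted p 0.344). The latter depended on the scaling, since r of Sst and Ppy was 0.32 (adjusted p 0.00423) on log2(TPM + 1) and 0.26 (adjusted p 0.0183) on the ratio to the insulin genes and Iapp. For Pyy and Sst, the ranks were 369 and 282, and within strains r ran from -0.31 in CAST to 0.91 in NOD. Pyy varied with Rbp4 as well (r = 0.49, adjusted p 0.000525, ranks 109 and 111, within strains from 0.17 in CAST to 0.87 in 129). With Hhex it had the lowest r of the 11 pairs (r = 0.27, adjusted p 0.0458, ranks 1907 and 1962, within strains from -0.20 in CAST to 0.69 in WSB), a call that was lost with TMM normalization, at 0.23 (adjusted p 0.1). With upper-quartile normalization, Ghrl passed with both PP hormones and with none of the 4 delta genes, but on the ratio to Ins1, Ins2 and Iapp it passed with Rbp4, at 0.32 (adjusted p 0.0237), and with Hhex, at 0.26 (adjusted p 0.0268). For Ppy and Ghrl the values were Pearson's r = 0.39 and Spearman's rho = 0.41, permutation p adjusted over the 21 pairs 0.0015 and 0.00115, and r = 0.37 without the 2 libraries farthest from the median of Ppy. For Pyy and Ghrl they were Pearson's r = 0.39 and Spearman's rho = 0.39, permutation p adjusted over the 21 pairs 0.00144 and 0.00138, and r = 0.32 without the 2 libraries farthest from the median of Pyy. The ranks of Ghrl for the PP hormones and of these for Ghrl were 9 and 266 with Ppy and 8 and 465 with Pyy, and within strains r with Ppy ran from -0.22 in NOD to 0.73 in AJ and r with Pyy from -0.06 in NOD to 0.72 in AJ. With Sst, Ghrl did not pass (r = -0.04, adjusted p 0.823), and with Ghsr, the receptor of ghrelin, at r = -0.02.

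**Figure D5:**
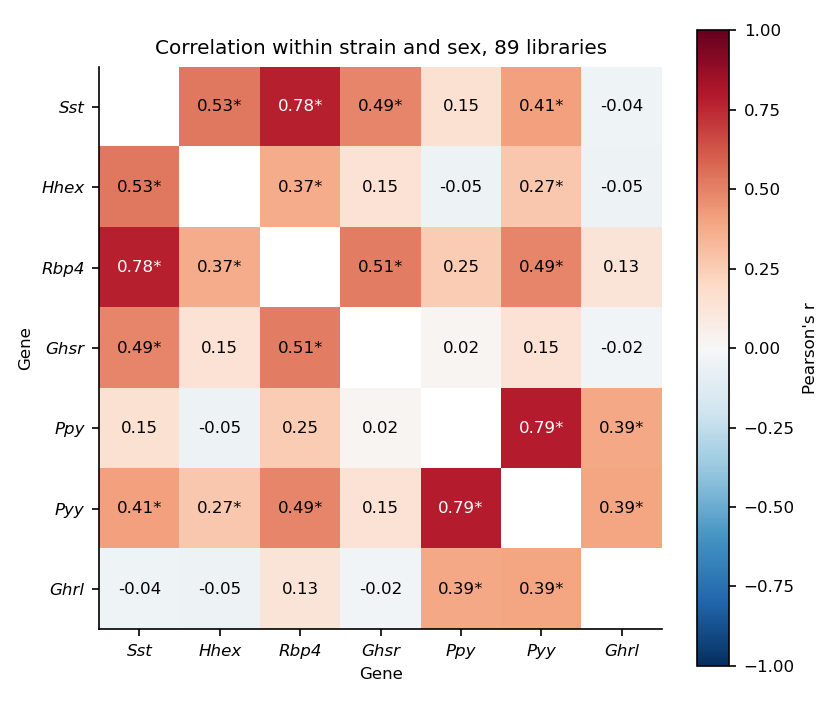
Pearson's r between the 7 genes over 89 libraries, on deviations from the mean of each strain and labelled sex, with a star for an adjusted permutation p-value under 0.05. The largest values are 0.79 for Ppy and Pyy and 0.78 for Sst and Rbp4.

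The genes of highest correlation with each of the 7 among all genes tested are given as a description, since they were picked as the highest. For Sst they were Rbp4, the calcium channel gene Cacna1h (r = 0.71), Gnas (r = 0.70), which encodes a stimulatory G protein, Ly6h (0.68) and the glutathione peroxidase gene Gpx3 (0.68). For Rbp4 they were Gpx3 (0.83) and the glucagon gene Gcg (0.79), both above Sst, then Igsf21 (0.72) and Mamld1 (0.70). Those of Hhex were Tagap1 (0.59), Irx1 (0.56), a homeobox gene of alpha cells, Chst7, Zfp35 and Wdr82 (0.54), and those of Ghsr were Sdc2 (0.64), Ptprz1 (0.62), itself on the list of further delta genes, Cpq, Nectin3 and Mllt4 (0.56).

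Ppy was closest to Pyy, and its 5 closest genes included Tspan8 (0.75), Vsig1 (0.68) and Mapk3 (0.60). Pyy was closest to Ppy, and its 5 closest genes included Mpp2 (0.66), Fev (0.64), a transcription factor of serotonergic neurons, and Rab15 (0.64). Mpp2 lies on the same strand of chromosome 11 (102057015 to 102088515), 18160 bases from Pyy. For Ghrl the values were lower, with Ramp1 (0.48), Synj2 (0.44), Gprc5c (0.44), Efemp2 (0.41) and Lrrtm1 (0.41).

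Of the further delta cell genes Ptprz1, Crhr2, Casr, Spock3 and Cckbr, 4 passed the filter, and Cckbr did not, with no count in 33 of 91 libraries. In PWK 3 were higher and 1 lower (median 0.95), in NOD 3 higher and 1 lower (median 0.67), and in NZO 3 lower and none higher (median -1.17, over all genes 0.01). In CAST 2 were higher and 2 lower (median -0.12), with Crhr2 at 0.49 ± 0.12 (SE) and Casr at 0.29 ± 0.08 (SE) among those higher. Over all genes, 23.2% were higher and 21.8% lower in PWK, 35.8% and 29.5% in NOD, 20% and 14.2% in NZO, and 26.7% and 31% in CAST. Ptprz1, a receptor phosphatase, was 5.35 ± 2.03 TPM (SD) in PWK and 0.603 ± 0.327 TPM in CAST, and differed from the mean of the other strains by -1.69 ± 0.12 (SE) on the log2 scale in CAST. Crhr2, a receptor for urocortins, was 2.56 ± 0.932 TPM in PWK and 0.378 ± 0.139 TPM in NZO (1.48 ± 0.17 (SE) and -1.66 ± 0.26 (SE)). Spock3 was 2.5 ± 0.912 TPM in 129 and 0.922 ± 0.387 TPM in PWK (0.83 ± 0.12 (SE) and -0.71 ± 0.19 (SE)).

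Receptors for these peptides were low, apart from Sstr3, at a mean of 68.9 TPM. Of 5 somatostatin and 4 neuropeptide Y family receptor genes, 5 passed the filter, and Sstr5, Npy2r, Npy4r, which encodes the receptor of pancreatic polypeptide, and Npy5r had no count in 60, 80, 52 and 86 of 91 libraries. In PWK 2 of the 5 were higher and 1 lower, beside 23.2% and 21.8% of all genes. Sstr1 was 1.65 ± 0.633 TPM in PWK and 0.381 ± 0.177 TPM in AJ (1.49 ± 0.21 (SE) and -0.91 ± 0.16 (SE)), and Npy1r was 0.983 ± 0.361 TPM in WSB (1.19 ± 0.15 (SE)). 

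Npy, the relative of Ppy and Pyy, varied more between strains than any of the 7 genes. It was 234 ± 102 TPM in CAST and 205 ± 102 TPM in PWK, 22.6 ± 13.9 TPM in NOD and 20.8 ± 8.68 TPM in WSB, and 1.6 ± 1.26 TPM in NZO, the lowest (4.74 ± 0.17 (SE) in CAST and 4.24 ± 0.21 (SE) in PWK). In PWK Npy and Pyy were higher and Ppy lower, whereas in CAST Npy was higher and Pyy lower. Cort, the relative of Sst, was 1.5 ± 0.917 TPM in CAST and 0.0722 ± 0.0811 TPM in B6 (2.04 ± 0.20 (SE) and -2.85 ± 0.30 (SE)), against Sst at -0.93 ± 0.09 in CAST.

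Genes that process or modify these peptides included 6 of 9 higher and 1 lower in PWK and 1 higher and 6 lower in NOD, at medians of 0.30 and -0.37, beside 23.2% higher and 21.8% lower of all genes in PWK and 35.8% and 29.5% in NOD. Dpp4, which encodes the peptidase that trims peptide YY and incretins, was 1.36 ± 0.368 TPM in WSB and 22.3 ± 6.68 TPM in NZO (-3.19 ± 0.11 (SE) and 1.41 ± 0.14 (SE)). Mboat4, which encodes the acyltransferase that activates ghrelin, was 0.254 ± 0.138 TPM in CAST (1.74 ± 0.24 (SE)), where Ghrl was highest, and 0.025 ± 0.030 TPM in NZO, with no count in 8 of 91 libraries. Scg5 was 1274 ± 249.9 TPM in NZO and 446 ± 108 TPM in B6. Of the genes of retinol handling beside Rbp4, 3 of 5 passed the filter. Ttr, the plasma partner of Rbp4, was 1452 ± 469.9 TPM in PWK (0.89 ± 0.16 (SE)), 499 ± 130.4 TPM in WSB (-0.53 ± 0.11 (SE)) and 354 ± 104 TPM in NOD (-1.17 ± 0.14 (SE)).

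Of 12 islet transcription factors, 11 passed the filter. Rfx6, which encodes a transcription factor of endocrine cells, was 61.2 ± 6.65 TPM in 129 and 25.1 ± 7.51 TPM in NOD, where it differed from the mean of the other strains by -0.76 ± 0.10 (SE) on the log2 scale. In PWK 2 of 11 were higher and 1 lower, and in NZO 1 was higher and 2 lower, beside 23.2% and 21.8% in PWK, 20% and 14.2% in NZO of all genes.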

How the data were processed

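RNA-seq was run on islets of 8 strains and both sexes, 91 libraries in 16 samples. Per the labels and the study's methods, the authors aligned reads to mm10 with GENCODE annotation and quantified them with RSEM, and deposited expected counts, not normalized, and TPM, scaled to the same total in each library. The RSEM version is not given in the sources used here. The deposited FPKM and length columns were not used. Total expected counts ranged from 16928552 to 35196145, so that 3 counts, the limit that a count of 0 allows, correspond to 0.0852 to 0.1772 CPM. Such limits cover counting error only.

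Genes were named from the GENCODE annotation (54079 of 54146 matched). From 21710 protein-coding genes, the 10% of lowest variance were removed (19370 left), and genes with a count in at least 85% of libraries were kept (15204). Expected counts were rounded and tested with edgeR 4.0.16 in R 4.3.3 (quasi-likelihood test, upper-quartile normalization, strain and sex as terms, all 91 libraries sharing 1 estimate of spread), with Benjamini-Hochberg adjustment over all genes and a threshold of 0.05. Strains were compared in 28 pairs and each against the mean of the other 7, and these comparisons share libraries. Whether the sex difference varied by strain was fitted on 82 libraries. Normalized counts are counts scaled to the mean effective library size. Correlations used log2(normalized count + 1) with 100000 permutations within strain and labelled sex. The model code was tested on simulated data.

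Alternatives were TMM and median-ratio normalization, other filters, DESeq2 1.42.0, limma-voom (limma 3.58.1), other covariates, and leaving out NOD, the 12 libraries against their sex label, or single libraries of NZO and PWK. Python 3.11.15, pandas 2.3.3, numpy 2.4.6, scipy 1.17.1 and matplotlib 3.10.9 were used. The genes named were the 7 genes, the gene lists, and the 5 genes of highest correlation with each. Some genes of these lists are not reported here. The members and lists were chosen with earlier results of these data known, and the ratios were chosen after the values were seen.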

Additional observations from a re-analysis of the deposited data

Results flagged for a closer look

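In 4 of the 91 groups of one gene, strain and sex that held 4 to 10 libraries, 1 library stood apart from the rest by Dixon's criterion, and chance flags about 1 in 20 groups. Rbp4 in females of NOD had a lowest library of 160.72 TPM against 245.84 to 367.92 TPM in the others (gap of 0.720 of the range, critical value 0.710). Ghsr in females of 129 had a lowest library of 1.11 TPM against 2.16 to 2.71 TPM (0.782, critical value 0.710). Both of these libraries are among the 12 whose sex-linked genes go against the label. Ghsr in females of AJ had a highest library of 1.40 TPM against 1.03 to 1.18 TPM (0.775, critical value 0.568). Ppy in males of AJ had a lowest library of 1881 TPM against 7040.1 to 16916 TPM (0.586, critical value 0.568).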

How the results depend on the processing

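Of 179 alternative values of single-gene differences between the highest and lowest strain or the sexes, 177 kept their direction and their side of the threshold, and all 49 adjusted p-values of the interaction stayed on theirs. Of 91 alternative counts of calls, 87 were within 1.5 times the main count. Without the 12 libraries against their sex label, the genes called by sex went from 609 to 1489 and those called by the interaction from 897 to 2676, while limma-voom called 426 by the interaction. The sex difference of Hhex was -0.22 (adjusted p-value 0.0502) with filterByExpr's filter and -0.19 (adjusted p-value 0.0879) with limma-voom. Of 21 correlations 11 passed, 10 with TMM normalization and 15 on log2(TPM + 1). When TPM was taken as a ratio to the sum of Ins1, Ins2 and Iapp, 17 passed, and r of Hhex and Ghrl went from -0.05 to 0.26. That sum is the same for all genes of a library. The cause was not tested. Of 56 differences of a strain from the others, 12 changed their call under some alternative and none of the 1085 values reversed. With a term for the library number range in the 4 strains numbered 1 to 65, 41 of 42 calls between pairs were the same. No paired analysis was possible because the labels give no pairing of libraries across strains. Depth limits Ghrl most, with fewer than 10 counts in 11 of 91 libraries.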

Other observations

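The 4 hormone transcripts Sst, Ppy, Pyy and Ghrl together held 1.96% of TPM in PWK on average (libraries from 0.942% to 2.89%), 1.81% in 129, 1.51% in AJ, 1.32% in WSB, 0.899% in NOD, 0.839% in B6, 0.614% in NZO and 0.601% in CAST (from 0.358% to 1.02%). This order depends on the genes that TPM is scaled over. With TPM rescaled without Ins1, Ins2 and Iapp, the mean of the summed 4 was 33756 in 129, 31487 in AJ, 29156 in PWK, 24966 in WSB, 15291 in B6, 13549.6 in NOD, 11041 in NZO and 10178 in CAST. With TPM rescaled without the beta cell and acinar markers it was 35274 in 129, 33061 in PWK, 31975 in AJ, 27829.6 in WSB, 17036 in B6, 15768 in NOD, 12265 in CAST and 12216 in NZO. Under both rescalings 129 stood above PWK and B6 above NOD, while AJ stood above PWK only in the first and NZO below CAST only in the second. The ratio of Ppy to Sst in TPM within a library was 2.93 ± 1.28 (SD, n = 4) in NZO and 1.82 ± 0.965 (n = 14) in AJ, where Ppy was the more abundant on average, and 0.287 ± 0.113 (n = 10) in NOD and 0.169 ± 0.0476 (n = 5) in PWK, where Sst was. These ratios were chosen after the values were seen and were not tested.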
